A study of Rattus norvegicus with 11 samples.

Results

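The 9 genes described here mark the medium spiny neurons of the striatum, and they were taken by symbol, 9 of the 30560 genes of the deposited table. Drd1, Tac1 and Pdyn mark the direct pathway, Drd2, Adora2a and Penk mark the indirect pathway, and Ppp1r1b, Rgs9 and Pde10a are shared by both. All 9 had enough reads to be tested, and their values were read in striatal RNA of 11 adult male Sprague-Dawley rats at day 3, with 1 library per rat.

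Intracerebral hemorrhage was induced by injecting collagenase VII-S, a bacterial enzyme that breaks down the wall of blood vessels, into the right striatum. The common hemorrhage group IC (n = 3) received 0.2 U in 1.0 μL, and the severe hemorrhage group IS (n = 3) received 0.6 U in 3.0 μL. The aspiration group IS-HA (n = 3) had the IS dose, and 6 h later 150 μL of the hematoma, about 75% of it, was withdrawn through a catheter. The Normal rats (n = 2) had neither collagenase nor aspiration and no sham injection is named for them, so that injury by the needle, collagenase and blood cannot be told apart in any comparison with Normal. Tissue came from the injected side, or from the corresponding region in Normal.

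Medium spiny neurons are the GABAergic projection neurons of the striatum and make up most of its neurons. Direct pathway neurons project to the output nuclei of the basal ganglia, carry the D1 dopamine receptor, which raises cAMP, and release substance P and dynorphin. Indirect pathway neurons project to the external pallidum, carry the D2 dopamine receptor, which lowers cAMP, together with the adenosine receptor that Adora2a encodes, which raises it, and release enkephalin. Both types pass the cAMP signal through DARPP-32, the product of Ppp1r1b.

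Total counts per library ranged from 6701301 to 18817645, so that a floor of 3 counts stood between 0.159 and 0.448 CPM (counts scaled to library size), a limit that covers counting error only. Levels are given as TPM, transcripts scaled by gene length and library size, and differences as log2 fold changes of normalized counts by the quasi-likelihood F test of edgeR, with p adjusted after Benjamini and Hochberg over 15742 genes. A gene was called where the adjusted p was under 0.05 and the log2 fold change was at least 1 in size, and ± after a log2 fold change is its standard error. All comparisons with Normal share the same 2 rats, and IS and IC are each used in more than 1 comparison. The 8 markers of cortical glutamatergic neurons, which are not expected in clean striatum, differed widely between libraries, the Normal rats included. Their summed level was 413.5 TPM in IS replicate 2 and 17.2 TPM in IS replicate 4, against 112 and 386 TPM in the Normal rats. Of the 8, 2 were at 0 in IS replicate 4.

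Promoter sequences are shown for 4 of the genes, a receptor and a peptide of the direct pathway, the receptor of the indirect pathway and the shared gene with the lowest log2 fold change in IS, because these moved together in the data and a cAMP-responsive letter pattern can be compared between them. They run from 250 bases before to 50 bases after the start, in the RefSeq table on build GRCr8, which is not the build of the counts. The regions are chr17:10546354-10546653 on the plus strand for Drd1, chr4:36645333-36645632 on the plus strand for Tac1, chr8:58605153-58605452 on the plus strand for Drd2 and chr1:54765619-54765918 on the minus strand for Pde10a, which has 2 entries, of which the one furthest upstream is shown. Capitals mark TGACG or its reverse complement CGTCA, the half-site of the cAMP response element.
Drd1: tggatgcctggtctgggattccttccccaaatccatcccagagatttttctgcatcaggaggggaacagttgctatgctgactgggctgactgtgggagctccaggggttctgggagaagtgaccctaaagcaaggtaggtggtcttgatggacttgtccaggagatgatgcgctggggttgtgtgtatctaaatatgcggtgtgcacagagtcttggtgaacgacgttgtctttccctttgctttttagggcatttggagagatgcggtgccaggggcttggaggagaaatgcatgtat
Tac1: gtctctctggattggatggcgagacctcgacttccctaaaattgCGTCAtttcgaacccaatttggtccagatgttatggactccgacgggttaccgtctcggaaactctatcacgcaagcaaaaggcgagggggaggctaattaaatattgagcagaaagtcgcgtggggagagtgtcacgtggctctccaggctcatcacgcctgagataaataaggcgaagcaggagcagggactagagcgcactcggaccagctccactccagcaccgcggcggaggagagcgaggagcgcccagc
Drd2: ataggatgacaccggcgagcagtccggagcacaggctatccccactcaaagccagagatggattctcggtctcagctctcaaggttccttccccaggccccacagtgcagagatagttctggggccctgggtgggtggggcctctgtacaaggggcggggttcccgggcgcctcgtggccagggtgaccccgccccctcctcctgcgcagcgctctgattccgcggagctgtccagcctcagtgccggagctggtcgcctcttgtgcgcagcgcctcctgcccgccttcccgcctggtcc
Pde10a: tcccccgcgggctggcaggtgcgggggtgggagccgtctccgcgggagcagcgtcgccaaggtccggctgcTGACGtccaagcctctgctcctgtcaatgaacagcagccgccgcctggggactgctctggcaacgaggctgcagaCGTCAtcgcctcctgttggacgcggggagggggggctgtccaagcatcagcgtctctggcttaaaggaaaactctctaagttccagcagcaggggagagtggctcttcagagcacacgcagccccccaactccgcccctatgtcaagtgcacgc
Of the 9 genes, 6 had an entry: these 4, Pdyn and Rgs9. Tac1 held 1 match, 206 bases before the start, and Pde10a held 2, at 179 and 104 bases before it, while the windows of Drd1, Drd2, Pdyn and Rgs9 held none. The letters TGACG, on either strand, occur in 21.2% of 33469 promoters of this length, and the full element TGACGTCA occurs in 1.83% of them and in none of the 6. A match is a run of letters and not a measured binding site.

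Relative to Normal, all 9 genes had negative log2 fold changes in all 3 hemorrhage groups, smallest in IC and of similar size in IS and IS-HA. In IC 1 of 9 genes was called lower than in Normal, where 2.66% of all tested genes were. In IS 8 of 9 were called lower against 17.0% of all genes, and in IS-HA 8 of 9 against 7.71%. None was called higher, a call made for 10.9% of all genes in IC, 18.8% in IS and 15.1% in IS-HA. In normalized counts, every rat of the group was below both Normal rats for 7 of 9 genes in IC (31.3% of all genes), 9 of 9 in IS (36.9%) and 9 of 9 in IS-HA (29.2%), and all 9 injured rats were for 7 of 9 (23.8%). Their median log2 fold change was -0.81 in IC, -1.58 in IS and -1.73 in IS-HA, while the median of all tested genes was 0.003, 0.018 and 0.056. These are bulk libraries, so fewer medium spiny neurons and less RNA per neuron cannot be told apart.

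**Figure D1:**
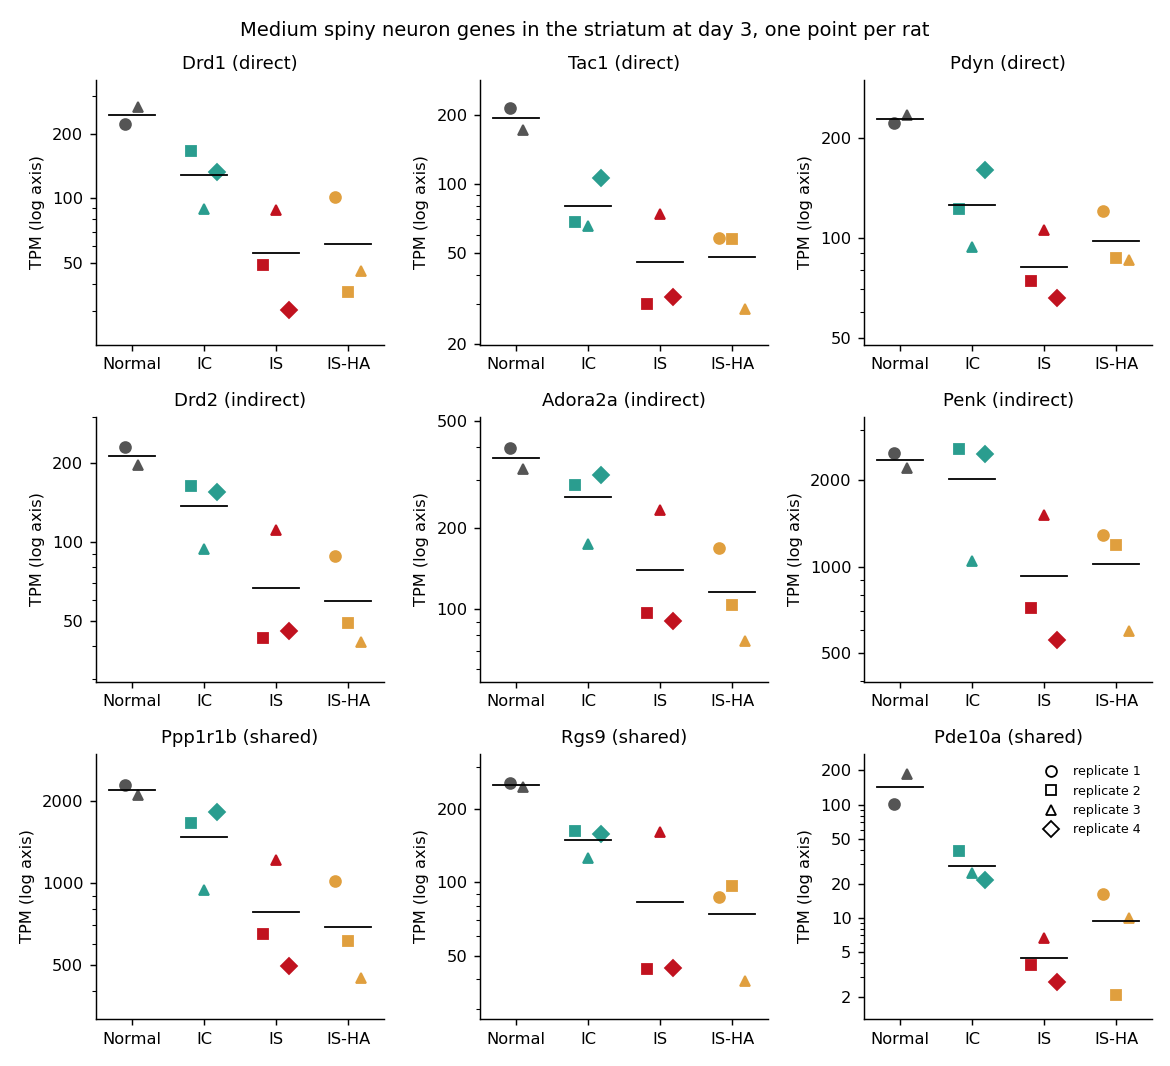
Level of each of the 9 genes in each rat, in TPM on a log axis whose range differs between panels, by group (Normal n = 2, the other groups n = 3 each). Symbols show the replicate number, whose meaning across groups the labels do not give, and lines show group means. Every IS and IS-HA rat lies below both Normal rats for all 9 genes, whereas the IC rats overlap the Normal rats for Penk.

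Drd1 (ENSRNOG00000023688), the D1 receptor, stood at 222 and 266 TPM in the Normal rats, at 165, 89.1 and 133 TPM in IC replicates 2, 3 and 4, at 49.3, 88.1 and 30.4 TPM in IS replicates 2, 3 and 4, and at 101, 36.7 and 46.2 TPM in IS-HA replicates 1, 2 and 3. No injured rat reached either Normal rat, and the highest IS rat was level with the lowest IC rat. The log2 fold change against Normal was -0.96 ± 0.45 in IC (adjusted p = 0.154), -2.11 ± 0.45 in IS (adjusted p = 0.00347) and -2.03 ± 0.45 in IS-HA (adjusted p = 0.00741), by edgeR's quasi-likelihood test. Drd1 was thus called lower in IS and in IS-HA only.

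Tac1 (ENSRNOG00000067502) encodes the precursor of substance P. In the same order of rats its levels were 215 and 172 TPM in Normal, 68.3, 65.6 and 107 TPM in IC, 30.0, 74.3 and 32.2 TPM in IS, and 57.9, 57.6 and 28.6 TPM in IS-HA. All 9 injured rats were below both Normal rats, and IS replicate 3 was above 2 of the IC rats. Against Normal, Tac1 had log2 fold changes of -1.31 ± 0.46 in IC (adjusted p = 0.0713), -2.07 ± 0.47 in IS (adjusted p = 0.00464) and -2.00 ± 0.47 in IS-HA (adjusted p = 0.0097), so that IS and IS-HA passed and IC did not.

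Pdyn (ENSRNOG00000026036), which encodes the dynorphin precursor, was at 221 and 234 TPM in Normal, 122, 93.9 and 159.7 TPM in IC, 74.2, 105 and 66.1 TPM in IS, and 120.3, 86.7 and 85.5 TPM in IS-HA. Its groups kept apart from Normal but ran into each other, and its changes were smaller than those of Drd1 and Tac1 in IS and IS-HA. They were -0.90 ± 0.28 in IC (adjusted p = 0.0509), -1.46 ± 0.28 in IS (adjusted p = 0.00216) and -1.24 ± 0.28 in IS-HA (adjusted p = 0.0089).

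In the indirect pathway, Drd2 (ENSRNOG00000008428), the D2 receptor, was at 231 and 197 TPM in Normal, 163, 94.0 and 155 TPM in IC, 43.0, 112 and 45.8 TPM in IS, and 88.5, 49.0 and 41.3 TPM in IS-HA. Each injured rat was below both Normal rats. The log2 fold change was -0.69 ± 0.44 in IC (adjusted p = 0.297), -1.66 ± 0.45 in IS (adjusted p = 0.0109) and -1.87 ± 0.45 in IS-HA (adjusted p = 0.0106).

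Adora2a (ENSRNOG00000001302), the gene of that adenosine receptor, had 396 and 332 TPM in Normal, 289, 175 and 315 TPM in IC, 97.1, 233 and 90.2 TPM in IS, and 169, 104 and 76.0 TPM in IS-HA. All injured rats were below both Normal rats in TPM, but IC replicate 4 lay within the Normal range in normalized counts, at a log2 CPM of 8.55 against 8.88 and 8.49 in Normal. The log2 fold change of Adora2a was -0.53 ± 0.46 in IC (adjusted p = 0.438), -1.37 ± 0.45 in IS (adjusted p = 0.0284) and -1.67 ± 0.46 in IS-HA (adjusted p = 0.0194).

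Penk (ENSRNOG00000008943), which encodes proenkephalin, had the highest level of the 9 genes, and it was not called in any comparison. It stood at 2500.1 and 2207 TPM in Normal and at 2573, 1047 and 2471 TPM in IC, where replicates 2 and 4 were at the level of Normal and replicate 3 was far below. The levels were 716, 1518 and 558 TPM in IS and 1291, 1192 and 596 TPM in IS-HA, all below Normal. The log2 fold changes were -0.25 ± 0.52 in IC (adjusted p = 0.766), -1.33 ± 0.52 in IS (adjusted p = 0.0529) and -1.18 ± 0.52 in IS-HA (adjusted p = 0.101), and without IC replicate 3 the IC value became 0.08.

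Of the shared genes, Ppp1r1b (ENSRNOG00000028404), a phosphatase inhibitor switched on by protein kinase A, was at 2287 and 2102 TPM in Normal, 1667, 944 and 1816 TPM in IC, 650.1, 1212 and 497 TPM in IS, and 1015, 613 and 447 TPM in IS-HA. Its log2 fold change was -0.61 ± 0.44 in IC (adjusted p = 0.348), -1.47 ± 0.44 in IS (adjusted p = 0.0178) and -1.68 ± 0.44 in IS-HA (adjusted p = 0.0161). Rgs9 (ENSRNOG00000003800), a regulator that shortens signalling by G proteins downstream of dopamine receptors, was at 256 and 248 TPM in Normal, 164, 126 and 159 TPM in IC, 43.9, 161 and 44.4 TPM in IS, and 87.2, 96.7 and 39.2 TPM in IS-HA. IS replicate 3 was at the level of IC for Rgs9 while the other IS rats were far lower. The log2 fold change of Rgs9 was -0.81 ± 0.56 in IC (adjusted p = 0.331), -1.58 ± 0.56 in IS (adjusted p = 0.0371) and -1.73 ± 0.56 in IS-HA (adjusted p = 0.0387).

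Pde10a (ENSRNOG00000011310), a phosphodiesterase that degrades cAMP and cGMP and is concentrated in medium spiny neurons, had the lowest log2 fold change of the 9 genes in all 3 comparisons with Normal. It stood at 100.3 and 186 TPM in Normal, 38.6, 25.1 and 21.7 TPM in IC, 3.86, 6.57 and 2.69 TPM in IS, and 16.2, 2.08 and 10 TPM in IS-HA. Normal, IC and IS did not overlap, and the IS-HA rats spanned the range of IS and beyond. The counts behind the lowest levels were 83, 148 and 42 in IS and 463, 31 and 194 in IS-HA, against 3360 and 6103 in Normal. Its log2 fold change was -2.38 ± 0.54 in IC (adjusted p = 0.0131), -4.99 ± 0.60 in IS (adjusted p = 1.6e-04), a level 0.0315 times that of Normal, and -3.98 ± 0.58 in IS-HA (adjusted p = 7.4e-04), so that Pde10a was called lower in all 3. In IS, 18 of the 15742 tested genes, Pde10a among them, had a log2 fold change as low or lower. It was the gene called in IC, where it passed the adjusted p in 18 of 22 alternatives, with adjusted p between 3.58e-04 and 0.285. It did not pass without Normal replicate 3 (log2 fold change -1.95, adjusted p = 0.136), without IC replicate 3 (-2.27, adjusted p = 0.063), without IC replicate 4 (-2.27, adjusted p = 0.0555) or with the replicate number as a block (-1.60, adjusted p = 0.285).

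**Figure D2:**
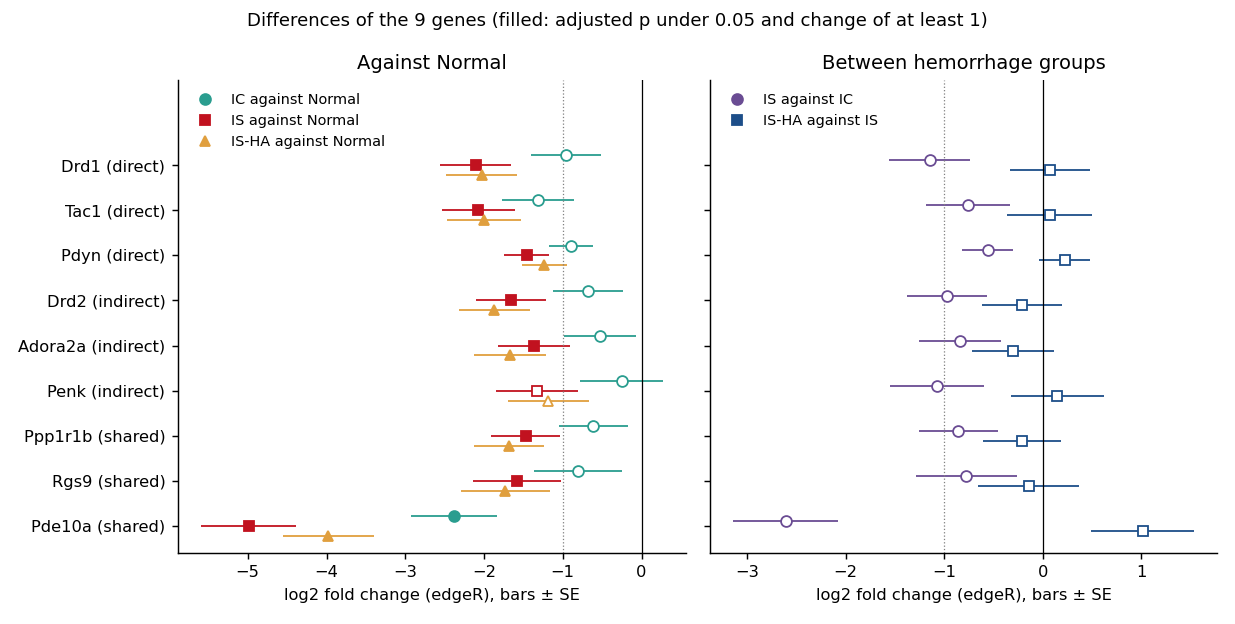
Log2 fold change of the 9 genes by edgeR, with bars of ± 1 standard error, against Normal (left) and between hemorrhage groups (right). Filled symbols mark genes called by adjusted p and size, and the dotted line marks a log2 fold change of -1. Pde10a lies furthest from 0, at -4.99 in IS, and no symbol is filled on the right.

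The calls depended on single rats. Without Normal replicate 1, 4 genes were called lower in IS and 3 in IS-HA, and without Normal replicate 3, 5 and 3, where the 1 Normal rat left is assumed to vary as the other groups do. Without IS replicate 2 or IS replicate 4, 5 genes were called lower in IS, and in IC 0 were called without Normal replicate 3 or IC replicate 3 and 2 without IS replicate 3 or IS-HA replicate 2. Over all genes, 2674 were called lower in IS with all rats, against 2462 without Normal replicate 1, 1524 without Normal replicate 3, 2878 without IS replicate 2 and 2051 without IS replicate 4. In IS-HA the count over all genes went from 1213 to 792 and 324 without Normal replicate 1 and 3. In IC it went from 418 to 28 without Normal replicate 3, 97 without IC replicate 3, 332 without IS replicate 3 and 965 without IS-HA replicate 2. All log2 fold changes of the 9 genes against Normal in IS and IS-HA stayed negative in each of these fits.

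Severe and common hemorrhage were compared directly. All 9 genes had a negative log2 fold change in IS against IC, from -0.56 ± 0.26 for Pdyn to -2.61 ± 0.54 for Pde10a, with a median of -0.86 against -0.001 for all genes. None was called by edgeR (called lower among all genes: 0%), and at an unadjusted p under 0.05, Drd1, Drd2, Penk and Pde10a were lower, 4 of 9 against 11.7% of all genes. Drd1 had -1.15 ± 0.41 (adjusted p = 0.172), Drd2 had -0.98 ± 0.41 (adjusted p = 0.203), Penk had -1.08 ± 0.48 (adjusted p = 0.217) and Pde10a had an adjusted p of 0.143. Pde10a was the only one of the 9 whose IS and IC rats did not overlap, which held for 18.7% of all genes. Pde10a was called lower by DESeq2's Wald test (adjusted p = 4.57e-04), with voom and a quality weight per rat (adjusted p = 0.0209), and without IS-HA replicate 2 (adjusted p = 0.0208), and its adjusted p ran up to 0.516 in the other alternatives. Over all genes these 3 fits called 349, 442 and 616 lower.

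Aspiration was compared as IS-HA against IS, and for none of the 9 genes was a difference detected. The log2 fold changes ran from -0.30 ± 0.41 for Adora2a to 0.22 ± 0.26 for Pdyn, apart from 1.01 ± 0.52 for Pde10a (adjusted p = 0.569), and the adjusted p of edgeR lay between 0.569 and 0.975. Among all genes, 0.00635% were called higher and 0% lower. None of the 9 reached an unadjusted p under 0.05 either (3.36% of all genes lower, 5.58% higher). DESeq2's Wald test called none of the 9, and over all genes it called 20 lower and 43 higher. The rats of both groups overlapped for all 9 genes, while 5.42% of all genes were lower and 4.96% higher without overlap, with Pde10a higher in 2 of the 3 IS-HA rats than in any IS rat. At standard errors of 0.26 to 0.52, changes well above that size in either direction could have been missed. Among the marker genes, Cxcr2 at -1.54 ± 0.37 had an adjusted p of 0.48 by edgeR. Slc5a7 at 1.56 ± 0.43 had one of 0.499. The lack of a detected difference therefore does not show that IS and IS-HA were equal.

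The direct and the indirect pathway were set against each other within each rat, as the mean log2 CPM of Drd1, Tac1 and Pdyn minus that of Drd2, Adora2a and Penk, relative to the mean of the Normal rats. This is a description with no test, because the genes were chosen. The Normal rats stood at -0.11 and 0.11. The IC rats stood at -0.79, -0.29 and -0.55 (mean -0.54 ± 0.25 SD, n = 3), the IS rats at -0.22, -0.58 and -0.35 (-0.38 ± 0.18 SD) and the IS-HA rats at -0.22, -0.31 and 0.02 (-0.17 ± 0.17 SD). Direct pathway genes were thus lower relative to indirect pathway genes in 8 of the 9 injured rats than in either Normal rat, the exception being IS-HA replicate 3, and the order was IC, IS, IS-HA with overlapping rats.

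**Figure D3:**
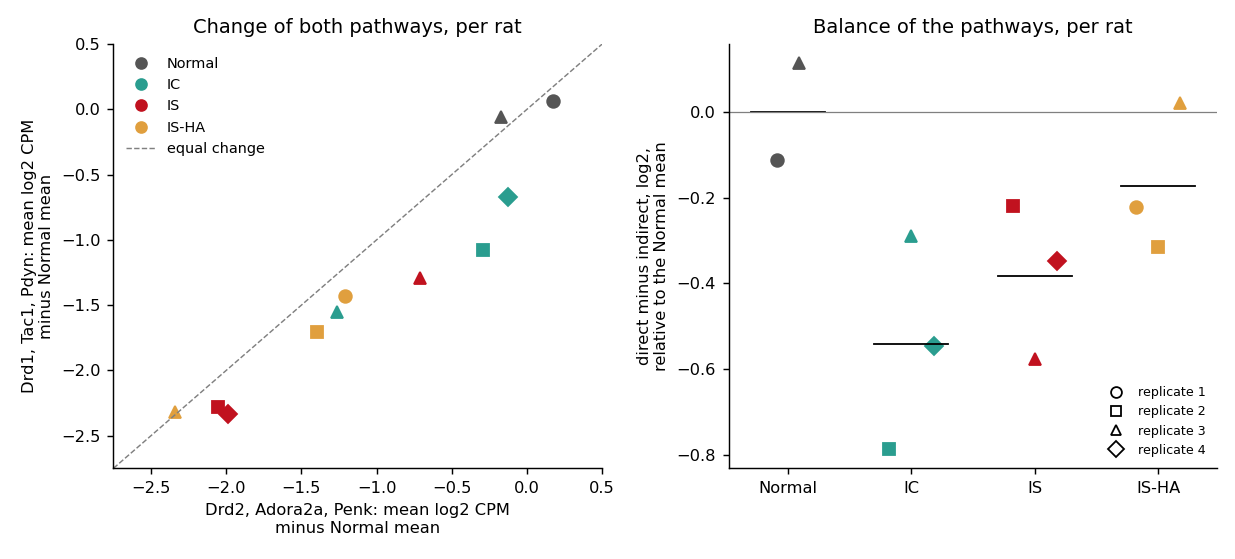
Left, the mean change of the direct pathway genes (vertical) against that of the indirect pathway genes (horizontal) in each rat, both in log2 CPM relative to the Normal mean, with a dashed line of equal change. Right, the difference of both by group with the group mean, which runs from -0.79 in IC replicate 2 to 0.11 in Normal replicate 3.

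The ratio of Tac1 to Penk in TPM was 0.0860 and 0.0779 in the Normal rats and between 0.0266 and 0.0626 in the 9 injured rats, all below Normal. The ratio of Tac1 to Pdyn, both direct pathway genes, was 0.971 and 0.736 in Normal. In the injured rats it was 0.335 to 0.705, also all below Normal, so that Tac1 was low relative to a gene of its own pathway too. The ratio of the receptors Drd1 to Drd2 was 0.961 and 1.35 in Normal and between 0.664 and 1.14 in the injured rats, so that the groups overlapped. Pdyn to Penk overlapped as well, at 0.0886 and 0.106 in Normal and 0.0475 to 0.144 in the injured rats. In other markers of both types, the indirect pathway list had the lower mean, a difference that was not tested. Relative to Normal, the 6 other direct pathway genes averaged -0.76 ± 0.32 in IC, -1.62 ± 0.31 in IS and -1.26 ± 0.24 in IS-HA on the log2 scale (SD, n = 3), and the 5 other indirect pathway genes averaged -0.93 ± 0.39, -2.51 ± 0.56 and -2.02 ± 0.62. Means of such short lists depend on single genes. In IS the median log2 fold changes lay closer together, at -2.07 for the direct and -2.35 for the indirect list. Sfxn1 stood at 0.19 in the direct list and Grik3 at -3.82 in the indirect list.

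Among these other direct pathway genes, 1 of 6 was called lower in IC, 4 in IS and 4 in IS-HA. In IS against Normal the transporter gene Slc35d3 had a log2 fold change of -2.20 (adjusted p = 8.67e-05), the transcription factor genes Isl1 and Ebf1 had -2.48 and -2.27, and the muscarinic receptor gene Chrm4 had -1.95 (adjusted p = 6.13e-04), all called lower. Eya1, a transcriptional coactivator, was at -0.98 (adjusted p = 0.0905) and Sfxn1, a mitochondrial serine transporter, at 0.19 (adjusted p = 0.44), and Slc35d3 was the one called in IC. Of the other indirect pathway genes 0 of 5 were called in IC, 5 in IS and 5 in IS-HA. In IS, Grik3, a kainate receptor subunit, had -3.82, the orphan receptor genes Gpr52 and Gpr6 had -3.09 and -1.52, and the transcription factor genes Sp9 and Six3 had -2.35 and -1.31.

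A wider list of 20 genes enriched in medium spiny neurons, in 21 rows because Arpp19 has 2 identifiers, moved with the 9 genes. Of these rows 2 were called lower in IC, 20 in IS and 20 in IS-HA, and 0 in IS against IC or IS-HA against IS, with medians of -0.81, -1.88, -1.91, -1.07 and 0.01. In IS against Normal the log2 fold change ran from -3.08 for Cnr1, the CB1 cannabinoid receptor (adjusted p = 0.00298), to 0.78 for the Arpp19 copy ENSRNOG00000023086 (adjusted p = 0.306). That copy held 485 counts over all rats and can share reads with the other copy, ENSRNOG00000063103, at -1.18 with 67556 counts, so it is uncertain.

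Of 16 genes of cAMP and DARPP-32 signalling, 3 were called lower in IC, 10 in IS and 8 in IS-HA, and none higher. Adcy5, the main adenylyl cyclase of the striatum, and Gnal and Gng7, which encode the G protein subunits that couple D1 and adenosine receptors to it, had -2.34, -1.71 and -2.15 in IS, and Rgs7bp, which encodes an anchor of the Rgs9 protein and its relatives, was lowest at -3.74 (adjusted p = 5.95e-04). The other genes called lower in IS were Ppp3ca at -2.28, Pde4b at -2.19, Prkar2b at -1.75, Cdk5r1 at -1.48, and Gnb5 and Pde2a at -1.32 each. The 6 not called in IS included the kinase genes Prkaca at 0.19 (adjusted p = 0.327), Csnk1e at 0.16 (adjusted p = 0.499) and Cdk5 at -0.22 (adjusted p = 0.367). The others were the phosphatase genes Ppp1ca at -0.03 (adjusted p = 0.938), Ppp2r5d at -0.41 (adjusted p = 0.104) and Ppp3r1 at -1.13 (adjusted p = 0.1), the last at a mean of only 1.06 TPM over all rats. Apart from the lowest and the highest of the list, these were named after the values were known.

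The 5 genes outside the 9 whose log2 CPM followed their mean most closely over the 11 rats were Hpca (Pearson r = 0.988), Pde1b (0.987), Actn2 (0.983), Rasd2 (0.981) and Ptpn5 (0.980). Hpca encodes a calcium sensor, Pde1b a calmodulin-dependent phosphodiesterase, Actn2 an actin crosslinker, Rasd2 a small GTPase and Ptpn5 a tyrosine phosphatase of striatal neurons. Mean levels of Hpca were 2120 TPM in Normal, 1149 TPM in IC, 580.1 TPM in IS and 474 TPM in IS-HA, and those of Ptpn5 were 533, 342, 198 and 203 TPM. Each of the 9 genes correlated with the mean of the other 8 at r = 0.817 (Pde10a) to 0.982 (Drd2). The rats share group, library preparation and depth, and the values are a description.

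Markers of other neurons also had negative mean changes, and the difference between lists was not tested. Relative to Normal, the 9 genes averaged -0.98 ± 0.46 in IC, -2.13 ± 0.70 in IS and -2.04 ± 0.51 in IS-HA on the log2 scale (SD, n = 3). The 8 tested markers of striatal interneurons averaged -1.13 ± 0.19, -2.25 ± 0.39 and -1.32 ± 0.23, and 12 pan-neuronal markers averaged -1.15 ± 0.27, -1.75 ± 0.88 and -0.99 ± 0.45. For interneuron markers 3 were called lower in IC, 7 in IS and 4 in IS-HA, and for pan-neuronal markers 3, 8 and 1. Sst, which encodes somatostatin, had -1.54 in IS (adjusted p = 0.00224) and -0.82 in IS-HA (adjusted p = 0.0591), and Uchl1, the most abundant pan-neuronal marker, had -0.35 in IS (adjusted p = 0.471) and 0.28 in IS-HA (adjusted p = 0.604). Uchl1 was the highest of the 12 in both comparisons, whose medians over the list were -1.40 in IS and -0.82 in IS-HA.

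**Figure D4:**
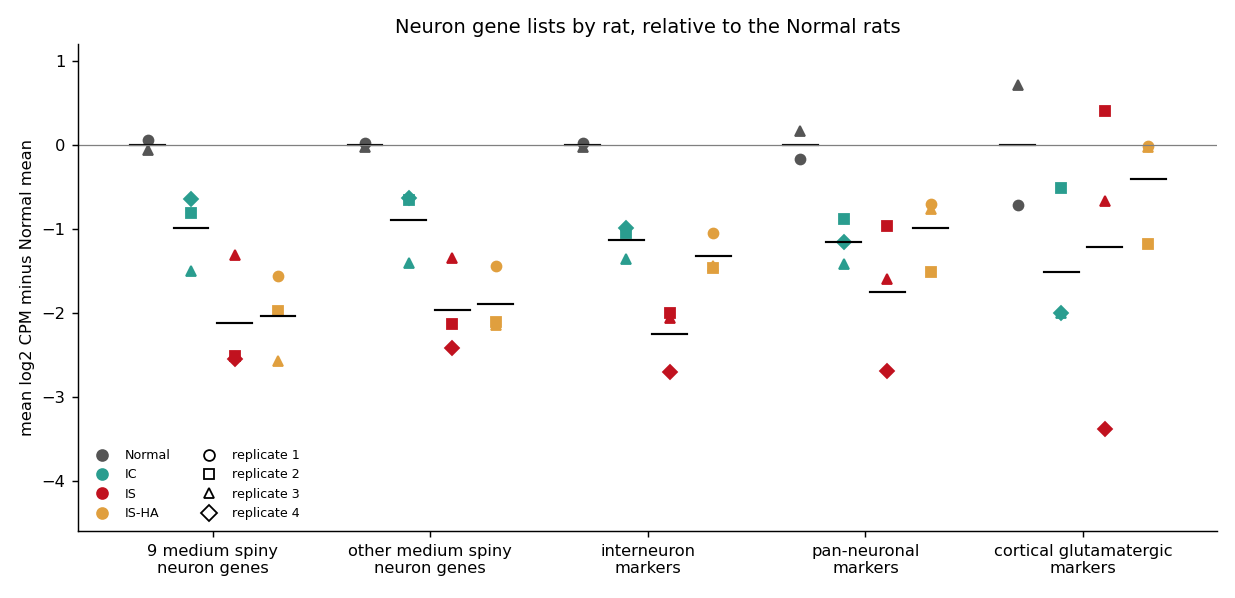
Mean log2 CPM of each gene list in each rat relative to the Normal mean, with lines at the group means. For the 9 genes IS and IS-HA stand at similar means of -2.13 and -2.04, and for interneuron markers IS-HA lies above IS. The cortical markers spread widely, from -3.39 in IS replicate 4 to 0.72 in Normal replicate 3, with IS replicate 2 at 0.40.

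The 9 genes minus the pan-neuronal markers, in mean log2 CPM, stood at 0.35 ± 0.32 in Normal, 0.52 ± 0.30 in IC, -0.02 ± 1.03 in IS and -0.69 ± 0.69 in IS-HA (SD). The IS rats spanned -1.20 to 0.64 and overlapped the other groups. The IS-HA rats lay between -1.46 and -0.11, below both Normal rats at 0.13 and 0.58 and below the IC rats at 0.27 to 0.86, which is a description with no test. Without IS replicate 2, the IS library highest in cortical markers, the IS mean was 0.57. Cortical neurons also carry pan-neuronal markers, and their part in this difference was not tested. None of the 8 cortical markers was called in any comparison.

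Markers of immune cells moved opposite to the 9 genes. All 8 microglia and macrophage markers were called higher in IC, IS and IS-HA than in Normal, with summed levels of 184 to 280.3 TPM in Normal, 1960.5 to 2724 TPM in IC, 3730.5 to 4810.5 TPM in IS and 2625 to 4566 TPM in IS-HA. All 5 tested neutrophil markers were called higher as well, from 4.91 to 5.11 TPM in Normal up to 494 to 696 TPM in IS and 168 to 858 TPM in IS-HA. Of 6 astrocyte markers 1 was called lower and 1 higher in IS. The one called higher was the most abundant, Gfap, with a log2 fold change of 3.15, while 5 of the 6 were negative and the median was -0.44. Of 6 oligodendrocyte markers 3 were called lower in IS. The part of cell composition in the values of the 9 genes was not tested.

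Gene length moved with the comparison of IS against Normal. The median log2 fold change went from 0.66 in the shortest decile of tested genes to -0.69 in the longest, by the length that the deposited counts and TPM imply. Tac1 and Penk are short, at percentiles 5.94 and 10.9 of length, and Drd1 and Pde10a are long, at 66.8 and 73.3. With the trend removed, an alternative chosen after seeing the data, Tac1 had -2.88, Penk -1.97 (adjusted p = 0.00654) and Pde10a -4.80 in IS, and 9 of 9 genes were called lower in IS and in IS-HA and 3 in IC. Calls of lower genes over the whole table rose with this correction too, from 2674 to 2792 in IS, from 1213 to 1600 in IS-HA and from 418 to 886 in IC. Over the alternatives, the adjusted p of Penk in IS ran from 0.00654 to 0.227.

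**Figure D5:**
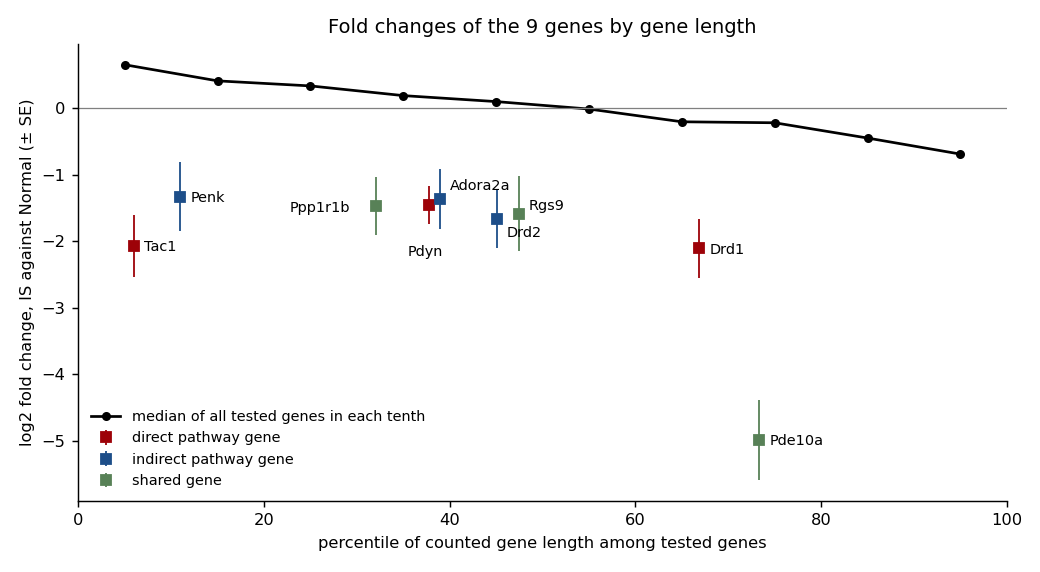
Log2 fold change of IS against Normal for the 9 genes (squares, bars of ± 1 standard error) by the percentile of their length among tested genes, and the median of all tested genes in each decile of length (black line). The line falls from 0.66 to -0.69, and all 9 genes lie below it at their length.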

How the data were processed

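Striatal poly(A) RNA of 11 rats (Normal n = 2, IC, IS and IS-HA n = 3 each) was sequenced by the authors as stranded paired-end libraries. The authors deposited raw read counts per gene, whole numbers without normalization, and TPM, in which counts are divided by gene length and scaled to the same sum in each rat. The submitters' processing notes name fastp 0.20.0, HISAT2 2.1.0, SAMtools 1.9, featureCounts, DESeq2 and the build mRatBN7.2; how strand was used in counting is not given in the sources used here. Library names in the labels matched the columns to the rats, with 0 columns unmatched.

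Counts of 30560 genes were filtered with filterByExpr, normalized by TMM and tested in one fit over the 4 groups with the quasi-likelihood F test of edgeR 4.0.16 in R 4.3.3 (15742 genes tested, common dispersion 0.0691). The study's methods use DESeq2 at the same cutoffs, which served as an alternative (DESeq2 1.42.0, Wald test). Standard errors were approximated from the fold change and F. Log2 CPM used a prior count of 2. Each replicate is a separate rat, and p-values measure the spread between these rats. The labels do not say whether a replicate number marks a shared batch across groups.

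The members, the gene lists and the rules were chosen with earlier results of these data known. Named were all 9 genes, every gene of short companion lists and the lowest and highest of longer ones in IS against Normal, the 5 genes closest to the mean of the 9, and the most abundant gene of each marker list. Alternatives were other scalings, filters, tests and samples, limma 3.58.1 on log2(TPM + 1), each rat left out and the replicate number as a block. A gene length correction and voom with quality weights were added after seeing the data. On simulated data for IS against Normal with 200 changed genes among 15742, edgeR recovered 99.5% of genes with a log2 change of 2 (3.86% of calls false) and 8.5% of those with a log2 change of 1 (0% false). DESeq2's Wald test recovered 98.5% (12.8% of calls false) and 21% (16% false). In the simulation a gene counted as called by adjusted p alone, and every gene was given the common dispersion, so these shares may not hold for the 9 genes. The plots were drawn with matplotlib 3.10.9.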

Additional observations from a re-analysis of the deposited data

How the results depend on the processing

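In IC against Normal 1 of the 9 genes was called lower, and 2 were with DESeq2's Wald test, 2 with only the groups compared, 2 with voom and quality weights, 3 with the gene length correction and 0 with the replicate block. Over all genes, 418 were called lower there, and 772, 1087, 1086, 886 and 15 in these alternatives. In IS and IS-HA against Normal, with 8 genes called in each, the replicate block left 2 and 3 (869 and 584 over all genes), and no other alternative that kept all rats moved these counts by over 1.5 times. Same-numbered rats of IS and IC had correlations of their deviations from the group means between -0.34 and 0.356. For IS-HA these were -0.475 to -0.0894 with IS, -0.364 to 0.0483 with IC and -0.364 to 0.338 with Normal. With 2 or 3 shared numbers per pair of groups, these values cannot decide whether same-numbered rats share a batch. The labels do not state it either. In IS against IC, where 0 were called, DESeq2's Wald test and voom called 1 each, which was Pde10a, beside 349 and 442 over all genes against 0 by edgeR. With single rats left out, the counts ran from 0 to 2 in IC, 4 to 9 in IS, 3 to 8 in IS-HA and 0 to 1 in IS against IC. In IS-HA against IS, 0 of the 9 genes were called in every alternative. Over all genes, DESeq2's Wald test called 20 lower and 43 higher there, and voom called 95 and 195. Without IS-HA replicate 2, edgeR called 86 lower and 395 higher.

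Signs against Normal were kept except for Penk in IC, which ran from -0.50 to 0.078 with single rats left out. In IS-HA against IS, log2 fold changes near 0 changed sign. With single rats left out, Drd1 ran from -0.40 to 0.55, Tac1 from -0.22 to 0.60, Drd2 from -0.51 to 0.35, Adora2a from -0.57 to 0.25, Penk from -0.13 to 0.67, Ppp1r1b from -0.49 to 0.22 and Rgs9 from -0.55 to 0.74. With the replicate block Drd1 was at -0.27 and Penk at -0.061, with voom Drd1 at -0.11, Tac1 at -0.41 and Penk at -0.41, with the length correction Drd1 at -0.036, and with limma on TPM Rgs9 at 0.023. The cause of these changes was not tested.

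Direct minus indirect pathway genes, before centring on Normal, had group means of -1.36 in Normal, -1.90 in IC, -1.74 in IS and -1.53 in IS-HA. Counted as Drd1 minus Drd2 they were 0.69, 0.40, 0.25 and 0.48, and as Tac1 and Pdyn minus Penk -3.25, -4.02, -3.63 and -3.63. These scores are not scaled by length, so only their change between groups can be read. By both pairs the IC mean was lower than the Normal mean. For Drd1 minus Drd2 the IC rats, at 0.28 to 0.51, overlapped the Normal rats at 0.44 and 0.93, whereas for the peptides IC and Normal did not overlap. The order of the groups was not kept either, with IS lowest by the receptors and IC lowest by the peptides. The 9 genes minus pan-neuronal markers in IS had -0.02, but 0.12 on log2(TPM + 1), and -0.35 to 0.57 with single rats left out. In the simulation with 200 changed genes, 8.5% of those with a log2 change of 1 were recovered. In the deposited data far more genes were called, 2674 lower and 2959 higher in IS against Normal. The simulated share therefore does not tell how many changes of that size are missed here.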

Other observations

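Receptors of tachykinin and opioid peptides were low in the injured striatum as well. Of 5 such genes, 2 were called lower than in Normal in IC (2.66% of all genes), 5 in IS (17.0%) and 4 in IS-HA (7.71%), and the median log2 fold change in IS was -2.80 against 0.018 for all genes. Tacr1, the receptor of substance P, had 13.8 and 16.2 TPM in Normal, 7.23, 4.32 and 5.43 TPM in IC, 2.61, 2.15 and 1.63 TPM in IS and 5.10, 0.856 and 2.96 TPM in IS-HA, and its log2 fold change in IS was -2.80 (adjusted p = 7.8e-04). Oprk1, the receptor of dynorphin, had 10.8 and 14.6 TPM in Normal and 2.96, 2.37 and 2.00 TPM in IS, a log2 fold change of -2.35 (adjusted p = 8.91e-04). No IS rat reached the level of a Normal or IC rat for either gene. Over all genes, 36.9% were lower without overlap in IS than in Normal in normalized counts, and 18.7% in IS than in IC.

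The other receptors rest on few reads. Oprm1, the mu opioid receptor, had 32 and 149 counts in Normal, 3, 7 and 5 in IC, 0, 2 and 1 in IS and 3, 4 and 6 in IS-HA. Tacr3, the neurokinin B receptor, whose main ligand is not a product of the 9 genes, had 54 and 97 counts in Normal and 3, 1 and 0 in IS, and Oprd1, the delta opioid receptor, had 36 and 64 in Normal and 13, 8 and 0 in IS. Normal libraries were the deepest on average, and no fold change is given at these counts. Without Tacr3, 2 of 4 receptors were called lower in IC, 4 in IS and 3 in IS-HA.

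Within the indirect pathway, the ratio of Penk to Drd2 in TPM was 10.8 and 11.2 in the Normal rats and 11.1 to 24.3 in the injured rats, with IS-HA replicate 2 highest, so that 8 of 9 injured rats were above both Normal rats. Penk is shorter than Drd2, and the part of the length trend in this ratio was not tested.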
